A study of Mus musculus with 34 samples.

Results

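In mouse liver macrophages taken 24 h after diphtheria toxin, 1691 of 80982 tested regions held more acetylation of histone H3 at lysine 27 (H3K27ac) than both blood monocytes and Kupffer cells, and 1921 held less than both. These 3612 regions are the subject here. They were found in the deposited table of 84647 regions of 2000 bp with 1 contrast, the repopulating liver macrophages (RLM) against the equal-weight mean of the other groups. A region counted as above both, or below both, where the contrast had an adjusted p under 0.05 in edgeR's quasi-likelihood test, where the fitted difference from monocytes and that from Kupffer cells pointed the same way and were each at least 2-fold, and where both RLM libraries lay outside the range of the other 4 libraries. The p-value was that of the contrast, and the rule did not test each difference by itself. Where each also had to reach an adjusted p under 0.05 in that test, 646 regions lay above both and 1698 below. Regions at which RLM lay between the groups were left out by this rule. In all, 4609 regions were called higher and 7576 lower than the mean of the other groups at 2-fold or more, of which 36.7% and 25.4% met the rule; the others lay between the groups or were outside both by less than it asks.

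The monocytes were untreated Ly6C-high cells from the blood of C57BL/6J mice. The RLM came from Clec4f-cre/Rosa26iDTR mice, in which Cre driven by the Kupffer cell gene Clec4f opens an inducible diphtheria toxin receptor, and the mice had received the toxin 24 h before. The Kupffer cells were untreated; their sample labels state C57BL/6J, whereas the text of the series places them in the Clec4f-Cre/DTR line. Each group had 2 libraries, and 4 further H3K27ac libraries came from bone marrow-derived macrophages (BMDM) of C57BL/6J mice, cultured for 4 days and then left untreated or given DLL4, a ligand of Notch, for 24 h. Peak lists of the factors LXR, SMAD4 and RBPJ, used further below, came from untreated Kupffer cells or their nuclei and from BMDM. The BMDM for SMAD4 and RBPJ were untreated and of the same culture day. Those for LXR were of a later culture day and had been given the LXR agonist GW3965. Toxin, recent entry into the liver and, depending on which label holds, strain cannot be told apart in RLM. With 1 time point after toxin, the libraries do not show when the mark appeared or whether it was lost again, so the regions are described only by their place above or below both groups.

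H3K27ac marks active promoters and enhancers and is set by the acetyltransferases p300 and CBP. Kupffer cells are the resident macrophages of the liver sinusoids, where they clear particles and handle iron, heme and lipid. When they are killed, blood monocytes enter the emptied niche and take on Kupffer cell features under signals from endothelial and stellate cells, among them the Notch ligand DLL4 and ligands of the TGF-beta and BMP family, with the nuclear receptor LXR alpha as a central regulator of the mature state.

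Sequences that belong to the regions with the largest differences come first. Among the named regions above both, the largest difference was next to Mir34a, which encodes the microRNA miR-34a, a p53 target that restrains the cell cycle. Its mature 5p strand, from RefSeq (GRCm38.p6, chr4:150068473-150068494, plus strand), is shown because the gene was otherwise only a neighbour of the region; capitals mark the seed, bases 2 to 8.
miR-34a-5p: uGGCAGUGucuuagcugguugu

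Among regions of the naming rule and genes of the lists below, 5 promoters are shown, as the 250 bases before the RefSeq start (GRCm38.p6, 5′ to 3′ on the strand of the gene). Capitals mark matches to 8 short motifs, searched on both strands: CACGTG (E-box), TCATGTG (M-box), TGANTCA (AP-1), TGACGTCA (CRE), CCAAT, TTGCNNAA (C/EBP), GAGGAAG (PU.1) and GGGNNTTCC (NF-kB). Gpnmb (chr6:49036268-49036517, plus strand) and Cd63 (chr10:128909095-128909344, plus strand) lay in regions above both.
Gpnmb: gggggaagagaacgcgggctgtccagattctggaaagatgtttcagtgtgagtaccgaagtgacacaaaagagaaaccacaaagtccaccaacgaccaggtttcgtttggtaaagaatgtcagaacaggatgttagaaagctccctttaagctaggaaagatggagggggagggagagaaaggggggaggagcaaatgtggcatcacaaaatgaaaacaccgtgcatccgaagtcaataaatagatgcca
Cd63: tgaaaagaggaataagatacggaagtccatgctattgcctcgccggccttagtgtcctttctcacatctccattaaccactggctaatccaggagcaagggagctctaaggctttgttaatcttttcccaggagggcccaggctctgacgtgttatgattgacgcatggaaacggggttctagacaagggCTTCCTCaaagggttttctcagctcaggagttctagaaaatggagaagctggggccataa
Bco2 (chr9:50553663-50553912, minus strand) and Il18 (chr9:50554450-50554699, plus strand) are neighbouring genes on opposite strands whose starts lay in 1 region below both, and Ifitm6 (chr7:141016893-141017142, minus strand) lay in another.
Bco2: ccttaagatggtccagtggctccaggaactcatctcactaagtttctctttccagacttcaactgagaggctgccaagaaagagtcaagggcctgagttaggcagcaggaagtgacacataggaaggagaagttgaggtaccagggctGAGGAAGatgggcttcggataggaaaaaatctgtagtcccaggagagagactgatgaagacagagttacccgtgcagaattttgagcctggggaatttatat
Il18: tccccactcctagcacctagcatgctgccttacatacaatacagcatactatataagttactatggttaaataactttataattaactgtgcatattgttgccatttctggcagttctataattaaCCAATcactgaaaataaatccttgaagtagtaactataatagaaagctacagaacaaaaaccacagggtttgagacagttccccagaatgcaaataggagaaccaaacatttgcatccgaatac
Ifitm6: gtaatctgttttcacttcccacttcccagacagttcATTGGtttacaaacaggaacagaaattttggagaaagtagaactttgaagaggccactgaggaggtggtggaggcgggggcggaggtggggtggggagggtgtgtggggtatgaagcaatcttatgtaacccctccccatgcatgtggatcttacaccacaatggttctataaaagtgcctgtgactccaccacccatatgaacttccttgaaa
The Gpnmb window held none of the 8 motifs. Cd63 and Bco2 each held 1 copy of the PU.1 letters, and Il18 and Ifitm6 1 CCAAT each. Over all promoter windows inside tested regions (13794), GAGGAAG stood in 11.5%, against 7.94% of the 214 windows above both and 21.4% of the 192 below both. TTGCNNAA stood in 7.61% of all, 5.61% above and 16.7% below, and CCAAT in 34.8%, 25.2% and 47.9%. TGANTCA stood in 4.39%, 5.14% and 3.65%, GGGNNTTCC in 6.38%, 6.07% and 6.25%, and CACGTG in 8.51%, 8.88% and 2.08%. TCATGTG stood in 1.76%, 1.40% and 2.08%, and TGACGTCA in 2.66%, 0.467% and 3.65%. These are counts of letters, not of bound sites.

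Depth was 7.37 and 9.47 M tags in regions for RLM, 11.6 and 12.3 M for monocytes and 8.22 and 19.5 M for Kupffer cells. Levels are given as CPM, tag counts scaled to the TMM-adjusted library total, in the order of the replicate numbers, and 1 tag was worth 0.0587 to 0.131 CPM. In bulk libraries, fewer cells that carry a mark and less of it per cell cannot be told apart. Summed over 25 Kupffer cell identity genes, the level was 572 and 529 CPM in monocytes, 1299 and 1298 in RLM, and 5944 and 6900 in Kupffer cells, highest in the cells labelled as Kupffer cells. The 19 monocyte genes summed to 1805 and 1747 CPM in monocytes, 1105 and 1155 in RLM and 1248 and 1277 in Kupffer cells, highest in monocytes. Of the markers of other cells, 8 of 14 hepatocyte genes (Cyp2e1, Cps1 and Hnf4a among them), 8 of 12 stellate and fibroblast genes (Dcn, Lrat and Lum among them) and 6 of 14 lymphocyte genes had no region in the table. The tested hepatocyte genes summed to 29.2 and 31.4 CPM in RLM, between 22.2 and 22.9 in the monocytes and 70.5 and 72.1 in Kupffer cells. The erythroid and megakaryocyte genes (8 of 12 tested) summed to 120 and 112 CPM in RLM, 67.5 and 74.4 in monocytes, with 75.8 and 88.5 in Kupffer cells, so the RLM libraries were the highest. The part of these cells in the results was not tested.

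**Figure D1:**
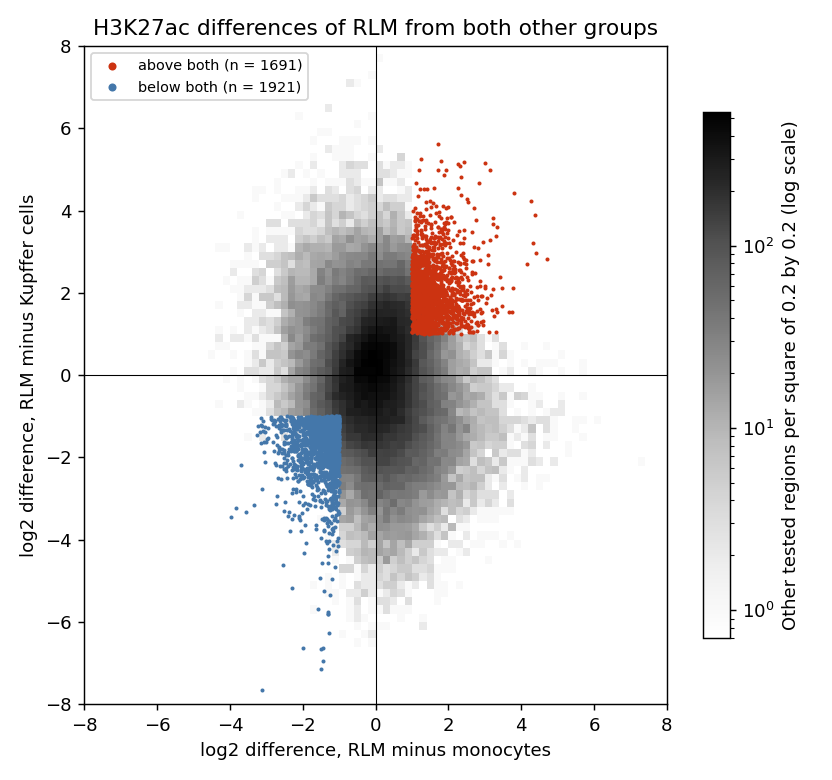
Log2 difference in H3K27ac of RLM from monocytes (horizontal axis) and from Kupffer cells (vertical axis) for 80982 tested regions. Red points are the 1691 regions above both, blue points the 1921 below both, and the grey squares count all other regions on a log scale.

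The regions above both were mostly weak and those below both mostly strong. The background of the call was 2.09% of the 80982 tested regions above both and 2.37% below both. The 1691 regions above formed 1498 separate loci once overlapping regions were merged, nearest to 1327 genes, and the 1921 below formed 1332 loci nearest to 1140 genes. Regions above had median levels of 2.63 and 2.54 CPM in RLM, 0.992 and 0.826 in blood monocytes and 0.715 and 0.587 in Kupffer cells, which are 20 and 25 tags in RLM. Regions below had medians of 3.81 and 3.96 CPM in RLM, 11.6 and 11.6 in the monocytes and 12.3 and 14.5 in Kupffer cells. Both sets lay more often away from starts than other regions: 75.9% above and 78.6% below were over 3 kb from the nearest annotated start, against 65.9% of all tested regions. Among regions of at least 5 CPM in the highest group this held only for the set below, with 77.8% against 50.5% of all and 49.6% of those above. The smaller of the differences from monocytes and Kupffer cells was 2-fold to 4-fold for most of them, with a median of 1.38 (log2) above and 1.23 below. Only 134 regions above and 85 below differed by at least 4-fold from both groups, and 10 and 5 by at least 8-fold. At the edge of the 2-fold limit, 273 regions above and 462 below were within 0.1 (log2) inside it, and 328 and 575 that passed the p-value were within 0.1 outside it.

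Weak signal was itself uneven between the groups. With the tested regions put in 10 equal bins by mean level, the median in the lowest bin was 1.05 and 1.12 CPM in RLM, 0.992 and 0.743 in monocytes, with 0.596 and 0.469 in Kupffer cells, and in bin 6 it was 3.55 and 3.66, 4.13 and 4.05, and 6.56 and 6.75. The RLM libraries were thus the highest at the weakest regions and the lowest in the middle of the range, the directions in which the members above and below lay. A normalization that follows the mean level, chosen after this was seen, called 1400 regions above and 918 below. Of the regions above both, 670 of 1691 were also called under it, and of those below, 705 of 1921. Splitting by level, also chosen after the values were seen, 371 regions above both reached 5 CPM in RLM (26 of them satellite), and 356 of these remained under that normalization and 361 in DESeq2. Below both, 1696 regions reached 5 CPM in the highest group, of which 570 remained under that normalization and 1665 in DESeq2. The share of called regions that lay above was 46.8% with TMM, 60.4% with the trended normalization and 22.0% in DESeq2. Without Kupffer cell replicate 2, the deepest library, 885 regions lay above both, and without RLM replicate 2, 2886 lay below. What part the uneven weak signal has in the counts was not tested. A further measure of strength was whether the authors' peak calls had contributed to a region: the RLM peak list had contributed to 68.2% of the regions above both, alone in 17.1%, against 66.7% and 4.79% of all tested regions, and all 3 lists had contributed to 60.9% of the regions below both against 43.7% of all.

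**Figure D2:**
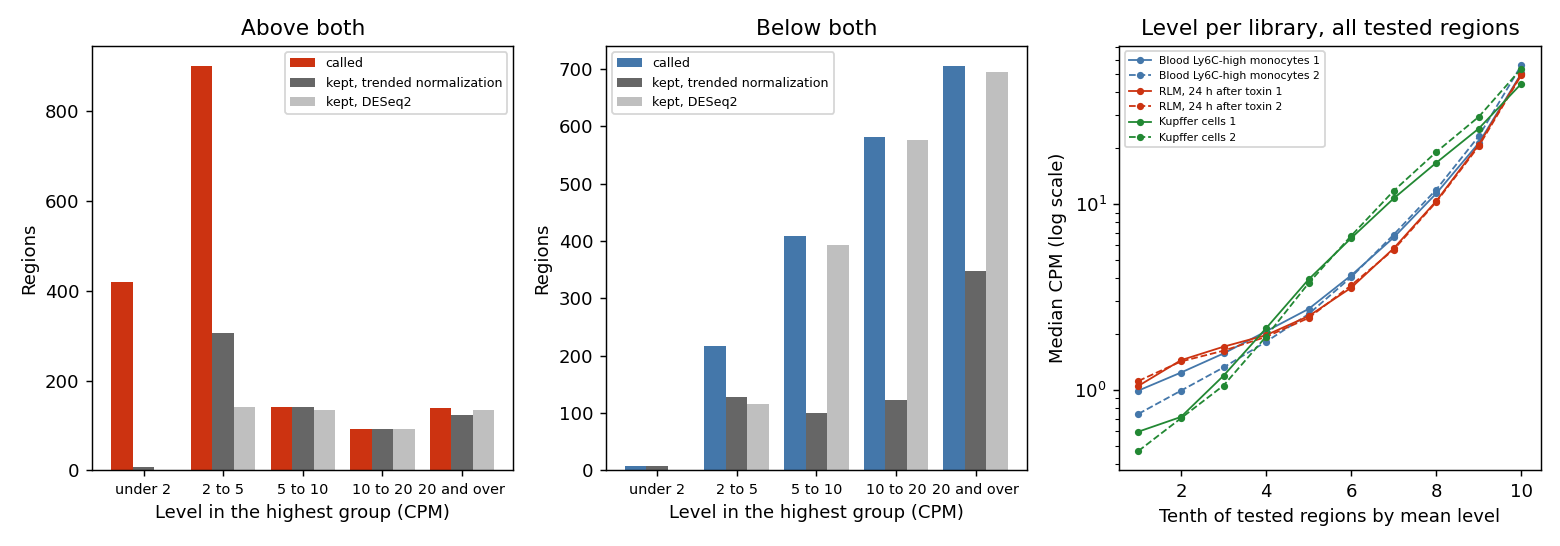
Number of regions above both (left) and below both (middle) by the level in the highest group in CPM, with the number kept under trended normalization and in DESeq2; right, median CPM per library (log scale) in 10 bins of all tested regions by mean level. Of the 371 regions above both at 5 CPM or more, 356 were kept under trended normalization, while of the 419 under 2 CPM, 7 were.

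Satellite repeats made up 27 of the regions above both and none below. They carried far more tags than other members, and 25 of them were among the 138 regions above both at 20 CPM or more. They are not used for named genes. Fitted without satellite and unplaced sequence, 1753 regions lay above both and 1915 below.

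Regions were ranked by the smaller of both differences among members above the median level, not satellite, 1 per gene and without predicted symbols. In this ranking, the region with the largest difference upward lay 7.79 kb before Mir34a (chr4:150059665-150061665, mm10, intergenic). It held 30.0 and 23.3 CPM in RLM, 1.24 and 1.49 in blood monocytes and 2.03 and 0.997 in Kupffer cells. The RLM level was 4.27 (SE 0.36) above monocytes and 4.24 (SE 0.36) above Kupffer cells on the log2 scale, with adjusted p = 5.56e-20 for the contrast in edgeR's quasi-likelihood test. Both other groups sat near the floor, and neither came within a factor of 10 of RLM. The peak list of RLM had not contributed to this region, only that of monocytes. Summed over the 10 regions nearest to Mir34a within 100 kb, the level was 143 and 126 CPM in RLM, 10.3 and 9.89 in the monocytes and 23.6 and 18.3 in Kupffer cells, the largest smaller-of-both difference of any gene with at least 2 regions and no predicted symbol (2.70, SE 0.19, from Kupffer cells).

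In the same ranking, the next region lay at Gpnmb, and the Cd63 promoter was the sixth. Gpnmb, a transmembrane glycoprotein of lysosome-rich macrophages, held 15.2 and 16.1 CPM in RLM in its first intron, 0.578 kb after the start (chr6:49036096-49038096), 1.57 and 1.49 in monocytes, with 2.03 and 0.821 in Kupffer cells. The log2 differences were 3.35 (SE 0.38) and 3.59 (SE 0.39), with adjusted p = 1.59e-14 (edgeR). At the promoter of Cd63 (chr10:128908797-128910797), a tetraspanin of late endosomes and lysosomes, RLM held 14.8 and 11.7 CPM, monocytes 1.32 and 2.56 and Kupffer cells 1.07 and 0.880. Its differences were 2.76 (SE 0.38) and 3.78 (SE 0.42), adjusted p = 6.86e-13 (edgeR). In both genes the lowest RLM library was more than 4 times the highest of the other 4. Summed by gene, Gpnmb held 57.6 and 63.3 CPM in RLM, 17.7 and 13.7 in blood monocytes and 13.9 and 6.95 in Kupffer cells over 9 regions.

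Transporters and metabolic enzymes were also among the 12 regions ranked first upward. A region 164 kb before Slc7a11 (chr3:50606939-50608939, intergenic), the cystine importer that feeds glutathione synthesis, held 13.7 and 11.5 CPM in RLM, 0.827 and 2.64 in the monocytes and 0.715 and 0.352 in Kupffer cells. The promoter of Stra6l (chr4:45847259-45849259), a receptor for retinol-binding protein, held 12.0 and 13.8 CPM in RLM, 1.74 and 1.49 in monocytes, with 0.358 and 0.352 in Kupffer cells. On the log2 scale the Slc7a11 region was 2.85 (SE 0.40) above monocytes and 4.67 (SE 0.49) above Kupffer cells, and the Stra6l promoter 2.99 (SE 0.39) and 5.14 (SE 0.48). The distal Slc7a11 region did not stand for the gene: summed over the 13 regions within 100 kb, Slc7a11 held 101 and 98.6 CPM in RLM, 109 and 120 in blood monocytes and 8.91 and 12.1 in Kupffer cells, so RLM lay near monocytes. At Uck2 (chr1:167283712-167285712, first intron), a kinase of pyrimidine salvage, RLM held 27.3 and 25.7 CPM, monocytes 5.95 and 3.88 and Kupffer cells 1.07 and 0.528. The Uck2 region thus stood apart mostly from Kupffer cells (5.17, SE 0.39) and less from monocytes (2.43, SE 0.30), adjusted p = 2.16e-18 (edgeR). The promoter of Astl (chr2:127336834-127338834), a metalloproteinase known from the egg, held 34.6 and 28.5 CPM in RLM, 5.12 and 4.54 in the monocytes and 2.03 and 1.76 in Kupffer cells.

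The other 5 of these 12 regions lay near Tns1, Ssh1, Clic4, Trpm1 and Zfpm1. An intron region of Tns1 (chr1:73998232-74000232), which links actin to integrins, held 11.7 and 7.72 CPM in RLM, 1.41 and 0.743 in monocytes, with 0.715 and 0.0587 in Kupffer cells. An intron region of Ssh1 (chr5:113951810-113953810), a phosphatase that activates cofilin, held 6.31 and 5.79 CPM in RLM, 1.32 and 0.908 in blood monocytes and 0.596 and 0.469 in Kupffer cells. A region 27.7 kb before Clic4 (chr4:135299505-135301505), an intracellular chloride channel, held 12.7 and 7.21 CPM in RLM, 0.909 and 0.908 in the monocytes and 1.91 and 1.88 in Kupffer cells. All 3 kept both RLM libraries at more than 3 times the highest other library. Lower levels were met 92.5 kb before Trpm1, a cation channel, with 4.60 and 4.47 CPM in RLM against at most 1.32 elsewhere. The region 137 kb before Zfpm1, a cofactor of GATA factors, held 2.36 and 3.86 CPM against at most 0.835. There RLM held 56 tags, monocytes 4 and Kupffer cells 11.

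**Figure D3:**
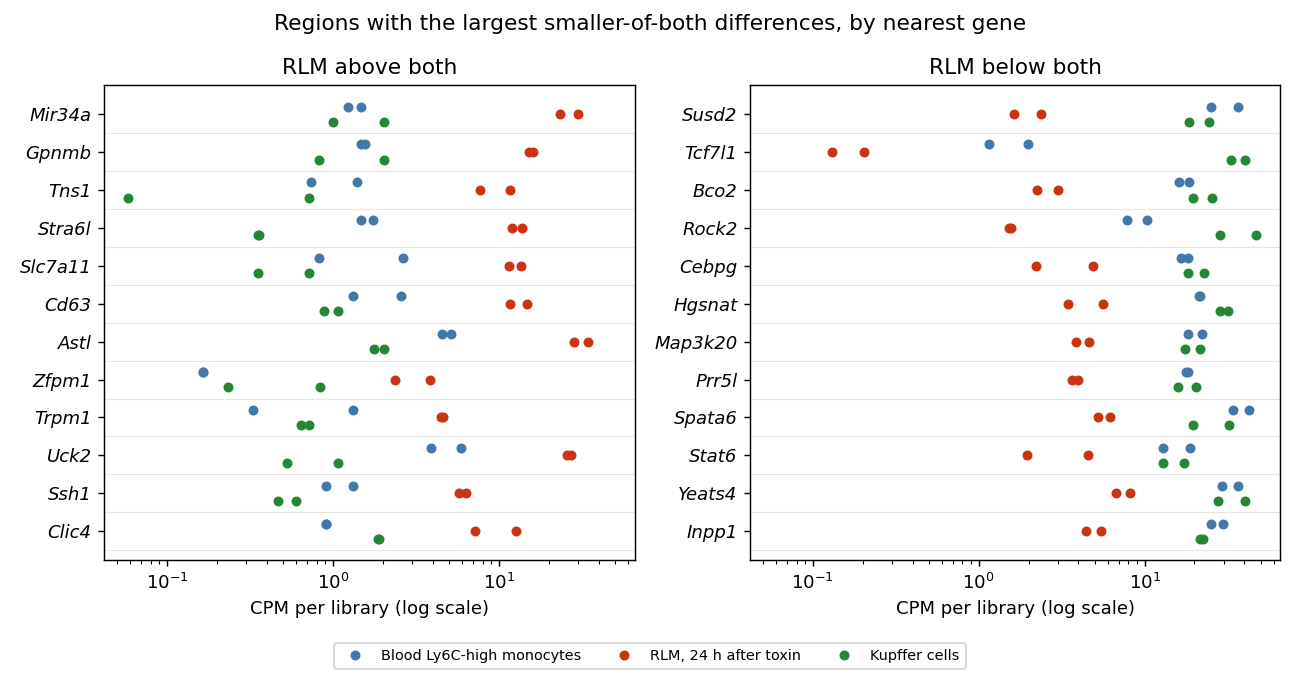
H3K27ac level in CPM (log axis) of each of 6 libraries at the 12 named regions above both and the 12 below both, by nearest gene. They have the largest smaller-of-both difference among the regions ranked. Points are single libraries, and the RLM points lie outside the other 4 in each row by the rule that chose the regions.

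Some genes were the nearest gene of several separate loci above both. Amz2, a metalloprotease gene, had 4 loci (6 regions) 5.38 to 12.7 kb from its start. The strongest of them (chr11:109416695-109418695) held 21.7 and 23.7 CPM in RLM, 2.15 and 1.90 in monocytes, with 5.72 and 4.87 in Kupffer cells. Sgms1, a sphingomyelin synthase, also had 4 loci (5 regions of 53 tested). Its promoter held 30.2 and 46.5 CPM in RLM, 14.1 and 17.2 in blood monocytes and 16.0 and 14.5 in Kupffer cells, a difference of 1.30 (SE 0.24) from monocytes that was 0.95 when RLM replicate 2 was left out and then missed the 2-fold limit. Zfpm1, Cxxc5, Prkch and Bcl2l11 had 4 loci each at low level, with RLM means of at most 3.11, 6.05, 7.20 and 5.69 CPM. Under the trended normalization, 5 of 6 Amz2 regions and 5 of 5 Sgms1 regions remained, against 2 of 4 for Zfpm1, 1 of 4 for Cxxc5, 2 of 4 for Prkch and 1 of 4 for Bcl2l11.

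Summed by gene, 319 of 16749 genes lay above both groups, a background of 1.9%, and 155 below, 0.925%. After Mir34a, the genes with the largest difference upward and at least 2 regions included Astl, Stra6l and Capn12. Astl held 87.7 and 69.2 CPM in RLM, 15.5 and 13.9 in the monocytes and 6.37 and 5.98 in Kupffer cells, over 5 regions. Capn12, a calpain protease, held 7.93 and 7.57 CPM in RLM, 2.64 and 1.18 in monocytes, with 1.84 and 1.95 in Kupffer cells. Total-tag scaling moved the median contrast of all genes from 0.03 to 0.21 (log2), gave 453 genes above and 80 below (85.0% above, against 67.3%), and with the trended normalization the share above was 47.7%. Without Kupffer cell replicate 2, 146 genes lay above, and without RLM replicate 2, 290 lay below.

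Ranked in the same way, the region with the largest difference downward lay 33.0 kb before Susd2, a membrane protein gene (chr10:75676022-75678022, annotated as intronic). It held 2.36 and 1.63 CPM in RLM, 25.0 and 36.7 in blood monocytes and 18.5 and 24.5 in Kupffer cells. The RLM level was 3.97 (SE 0.33) below monocytes and 3.45 (SE 0.33) below Kupffer cells, a log2 contrast of -3.71 with adjusted p = 1.21e-15 in edgeR's quasi-likelihood test. Monocytes lay slightly above Kupffer cells there, and all 4 libraries were far above both of RLM.

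The other regions of this group were spread over signalling, lysosomal and transcription factor genes. The Bco2 promoter region (chr9:50552805-50554805), shared with Il18, held 3.02 and 2.23 CPM in RLM, 16.0 and 18.4 in the monocytes and 19.6 and 25.6 in Kupffer cells. Bco2 is a mitochondrial carotenoid-cleaving enzyme and Il18 a cytokine processed by inflammasomes. The differences were -2.72 (SE 0.32) and -3.12 (SE 0.32), adjusted p = 5.26e-12 (edgeR), and the higher RLM library was well under the lowest of the other 4. Before Stat6 (chr10:127633642-127635642), which carries interleukin-4 signals, RLM held 1.97 and 4.57 CPM, monocytes 12.9 and 18.8 and Kupffer cells 12.9 and 17.2. Before Cebpg (chr7:35065129-35067129), a C/EBP family factor, RLM held 2.23 and 4.88 CPM, monocytes 18.3 and 16.7 and Kupffer cells 18.4 and 22.8. Monocytes and Kupffer cells overlapped at Stat6 and lay next to each other at Cebpg, and both RLM libraries were lower at each.

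Other members were low in RLM beside groups that themselves differed. Before Rock2 (chr12:16874905-16876905), a kinase of the actin cytoskeleton, RLM held 1.58 and 1.52 CPM, monocytes 7.85 and 10.3 and Kupffer cells 28.6 and 47.2. In an intron of Tcf7l1 (chr6:72736045-72738045), a TCF factor of the Wnt pathway, RLM held 1 and 2 tags, or 0.131 and 0.203 CPM, against 1.98 and 1.16 CPM in monocytes and 33.1 and 40.3 in Kupffer cells. By tags, Kupffer cells were 221 times RLM (95% counting interval 75.3 to 1072) and monocytes 9.13 times (2.90 to 46.2). The Tcf7l1 region was thus one of Kupffer cells, with monocytes low as well. Hgsnat, a lysosomal acetyltransferase, held 5.65 and 3.45 CPM in RLM against 21.4 to 32.0 in the other 4 libraries. Map3k20, a stress kinase, held 4.60 and 3.86 CPM against 17.6 to 22.1, and Prr5l, a partner of mTORC2, 3.68 and 3.96 against 15.9 to 20.3. Inpp1, an inositol phosphatase, held 4.47 and 5.49 CPM against 21.6 to 29.8, Yeats4, a reader of acetylated histones, 8.15 and 6.70 against 27.8 to 40.5, and Spata6 5.26 and 6.20 against 19.7 to 42.5. In each of these 6 regions the mean levels of monocytes and Kupffer cells differed by less than 2-fold.

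The nearest genes with the most loci below both were Atp10d (6 loci), a phospholipid flippase, Lrrfip1, Slc45a1 and Hk2 (5 each), and Uvrag and Irf2 (4 each). The Slc45a1 loci lay far off, 85.8 to 178 kb from its start, and the region with the largest difference was annotated as intronic. Hk2, a hexokinase, had 6 regions below both out of 19 tested, 6.74 to 50.1 kb from its start. Uvrag, which acts in autophagy and endosome traffic, had 9 of 24, and Atp10d 9 of 20. Under the trended normalization none of the 6 Hk2 regions remained, against 6 of 9 for Uvrag, 5 of 9 for Atp10d, 2 of 6 for Lrrfip1, 2 of 5 for Slc45a1 and 1 of 6 for Irf2. Prkch, which had 4 loci above both, also had 2 regions below.

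Summed by gene, the largest differences downward with at least 2 regions were at Bco2, Hist1h4n, Tmem50a, Map7 and Pde1a. Pde1a, a calcium-dependent phosphodiesterase, held 65.5 and 78.0 CPM in RLM, 192 and 243 in monocytes, with 220 and 265 in Kupffer cells over 14 regions. Map7, a microtubule-binding protein, held 31.7 and 39.3 CPM in RLM, 126 and 146 in blood monocytes and 104 and 112 in Kupffer cells over 15 regions. Both genes were high in monocytes and Kupffer cells alike and low in both RLM libraries. Tmem50a held 30.1 and 27.6 CPM in RLM, 126 and 164 in the monocytes and 79.9 and 96.5 in Kupffer cells. Hist1h4n, a histone gene of a family of near-identical copies and so uncertain, held 3.54 and 1.32 CPM in RLM, 9.80 and 10.1 in monocytes, with 6.93 and 7.99 in Kupffer cells.

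Gene lists were read as the count of regions within 100 kb of their genes, beside 2.09% above and 2.37% below over all tested regions. This background was not matched for level. Among the 45048 tested regions of at least 5 CPM in the highest group, 371 lay above both and 1696 below. The lists were chosen with earlier results of these data known, and the regions named from them after their values were seen. Of 175 regions of 20 lipid-associated and phagocytic genes, 12 (6.86%) were above both and 1 below, and 10 of the 12 remained under the trended normalization. The 12 regions formed 8 separate loci. By region, they lay at Gpnmb (5), Cd9 and Trem2 (2 each), and Cd63, Fabp5 and Plin2 (1 each). The Trem2 promoter, of a lipid-sensing receptor, held 13.1 and 18.9 CPM in RLM, 7.03 and 7.76 in blood monocytes and 7.87 and 7.10 in Kupffer cells. The list's genes were not high in RLM as a whole: their summed level was 1899 and 1865 CPM in RLM, between monocytes at 1222 and 1296 and Kupffer cells at 2786 and 3221, and 2 of 20 genes, Gpnmb and Cd63, were called above both. Of 133 regions of Notch target genes, 5 were above both and none below. Of these, 3 overlapping regions lay at the start of Dtx4, a Deltex ubiquitin ligase of the Notch pathway, where the first held 23.4 and 21.5 CPM in RLM, 5.21 and 3.88 in the monocytes and 9.66 and 5.57 in Kupffer cells. A region before Rbpj, the DNA-binding factor of the pathway, held 7.23 and 10.6 CPM, 3.14 and 2.48, and 1.07 and 0.880. Hes5, the 1 Notch gene called above both, rested on 7.93 and 3.29 CPM in RLM, 1.62 and 2.79 in monocytes, with 3.25 and 1.69 in Kupffer cells, and was lost in 5 alternatives.

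Members of the NF-kB list went both ways, with 7 of 229 regions above and 6 below, which formed 4 separate loci in each direction. A region 26.9 kb from Nfkbia, the NF-kB inhibitor, held 13.1 and 20.8 CPM in RLM, 3.47 and 5.45 in blood monocytes and 7.27 and 7.04 in Kupffer cells, and a region 32.2 kb before Tnfaip3, a deubiquitinase that restrains NF-kB, held 8.41 and 6.30, 1.82 and 1.32, and 1.43 and 1.58. The Il6 promoter, of an inflammatory cytokine, held 1.97 and 1.93 CPM in RLM, 5.54 and 4.95 in the monocytes and 20.5 and 24.0 in Kupffer cells. No gene of this list was called as a whole. Of 135 regions of NRF2 targets, 5 were above both and none below, at Slc7a11 (3) and at Gclm (2), the regulatory subunit of glutathione synthesis; their RLM levels were at most 5.91 CPM.

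The monocyte list held the highest share of regions below both of the 27 lists, 15 of 138 (10.9%), and none above. These 15 regions formed 9 separate loci at 4 genes, and 7 of the 15 remained under the trended normalization. At the Ifitm6 promoter, an interferon-inducible membrane protein gene, RLM held 2.76 and 7.21 CPM, monocytes 21.7 and 21.2 and Kupffer cells 19.9 and 21.4. By gene, Klf2, a transcription factor of quiescence, held 100 and 113 CPM in RLM, 270 and 223 in monocytes, with 314 and 353 in Kupffer cells. Of the 19 genes, 3 were called below both, and in Ifitm6 and Klf2 Kupffer cells were at or above the monocyte level.

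AP-1 and immediate early genes had 16 of 273 regions below both and 3 above, with 10 of the 16 kept under the trended normalization. The 16 formed 8 separate loci, and by region lay at Batf3, Fos (5 each), Nr4a1 (4) and Fosl2 (2). A region 20.4 kb before Nr4a1, a nuclear receptor of the immediate early response, held 11.3 and 12.5 CPM in RLM, 39.3 and 48.9 in blood monocytes and 39.5 and 50.2 in Kupffer cells, and the gene as a whole held 152 and 168, 349 and 378, and 388 and 433. It was the 1 gene of 20 called below both. Glucocorticoid-responsive genes had 10 of 205 regions below and 4 above. The strongest lay 6.17 kb before Klf9, with 23.6 and 33.3 CPM in RLM, 88.5 and 83.2 in the monocytes and 55.1 and 69.2 in Kupffer cells, while 2 overlapping regions in the first intron of Tsc22d3 were above both. Class II presentation genes had 1 of 92 above, before H2-Eb1, and 5 below, in an intron of Cd86, a costimulatory ligand, and before H2-DMb2, a peptide-exchange chaperone with 19.1 and 22.0 CPM in RLM, 44.7 and 47.1 in monocytes, with 52.6 and 59.5 in Kupffer cells as a gene. Dendritic cell markers had 9 of 132 below and 4 above, 5 of the 9 being the Batf3 regions already counted; Xcr1, a chemokine receptor, held 14.2 and 7.90 CPM in RLM, 22.9 and 32.4 in blood monocytes and 49.4 and 62.2 in Kupffer cells. The list's summed level was 558 and 542 CPM in RLM, under monocytes at 623 and 635 and Kupffer cells at 1447 and 1599, and its part in the class II and Batf3 values was not tested. Hypoxia and glycolysis genes had 8 of 182 below, at Hk2 and the glucose transporter gene Slc2a1, and 2 above, at Egln3 and Pfkfb4, and none of these remained under the trended normalization.

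Other lists lay near the background or held few regions. Kupffer cell identity genes had 7 of 233 regions below and 1 above, and 20 of the 25 genes lay between monocytes and Kupffer cells. LXR targets had 2 above and 2 below of 171, targets of TGF-beta and BMP signalling 2 and 3 of 238, interferon response genes 0 and 2 of 83, chemokines 0 and 1 of 89, and iron and heme genes 2 and 3 of 122. Cell cycle genes had 4 and 2 of 126, alternative activation 3 and 0 of 94, matrix and repair 3 and 3 of 144, the integrated stress response 2 and 4 of 103 and general macrophage genes 3 and 1 of 171. Hepatocyte and lymphocyte genes had none of 10 and 16, neutrophil genes 0 and 1 of 45, stellate genes 0 and 1 of 13 and endothelial genes 2 and 3 of 57. Erythroid genes had 1 of 24 above and none below.

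**Figure D4:**
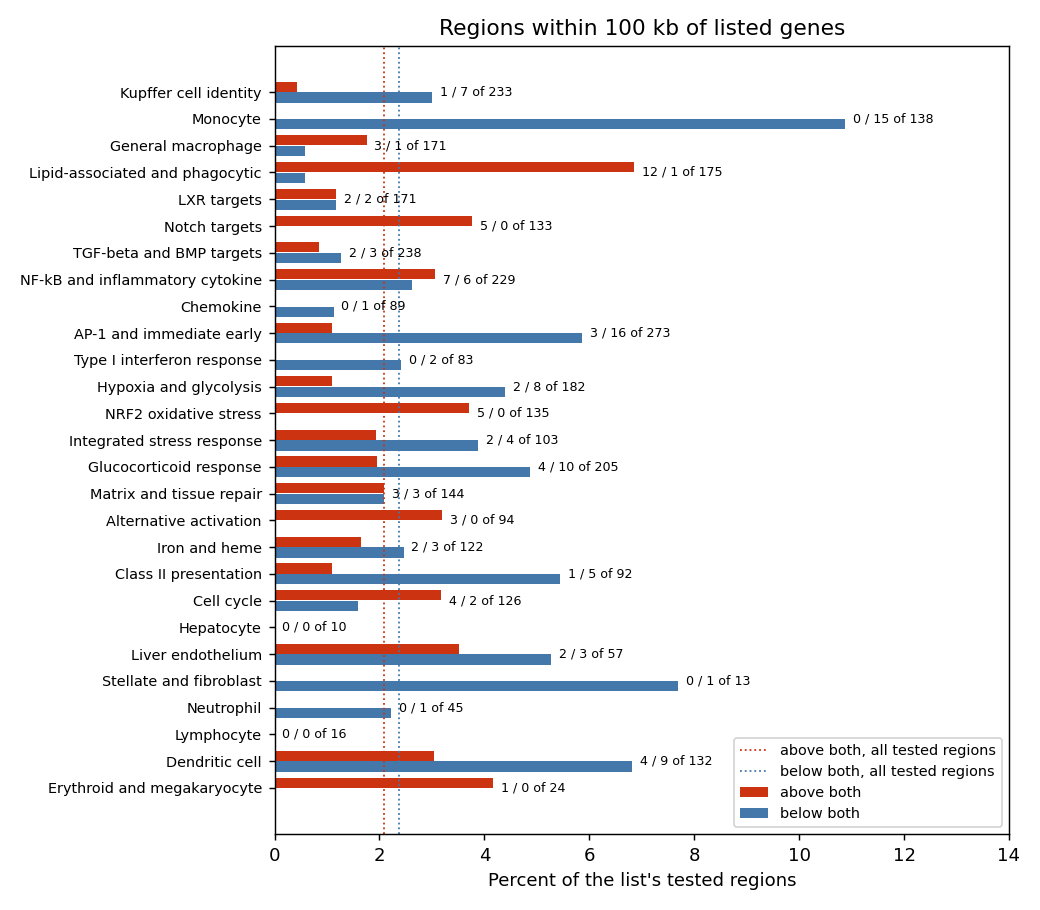
Percent of each list's tested regions that lay above both (red) or below both (blue), with the counts above and below and the number tested beside each pair of bars. Dotted lines are 2.09% and 2.37% of all tested regions, not matched for level. The monocyte list reached 10.9% below and the lipid-associated list 6.86% above. The lists were chosen with earlier results of these data known.

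Peaks of 3 regulators, called by the authors in other libraries of the series, were set beside the members: LXR in Kupffer cells and in BMDM given the LXR agonist GW3965, and SMAD4 and RBPJ, the effectors of TGF-beta and of Notch, in Kupffer nuclei and in BMDM. The BMDM for LXR were treated and of a later culture day than the untreated BMDM for SMAD4 and RBPJ. Only peaks found in both libraries of a group were used, and 1 bp of overlap counted. Kupffer cell LXR peaks overlapped 64.1% (95% Wilson interval 62.0 to 66.2) of the regions below both, 38.5% of all tested and 8.81% (7.55 to 10.3) of those above. For SMAD4 in Kupffer nuclei the shares were 56.3%, 33.3% and 7.57%, and for RBPJ 18.3%, 10.5% and 3.02%. By the rule, the regions above both are weaker in Kupffer cells than in RLM, and those below are stronger. Neither share with Kupffer cell peaks is thus independent of the choice of regions, and the same holds for the named ones. Most regions above were also weak in all groups. Among regions of at least 5 CPM, Kupffer LXR peaks overlapped 29.1% (24.7 to 33.9) of those above, 57.6% of all and 67.6% of those below. With BMDM peaks, the same restriction left the regions above nearer to all regions: LXR 42.3% (37.4 to 47.4) against 43.1%, SMAD4 41.5% (36.6 to 46.6) against 39.2%, and RBPJ 72.2% (67.5 to 76.5) against 78.4%. The regions below stood at 54.3% (51.9 to 56.7) for LXR, 45.0% (42.7 to 47.4) for SMAD4 and 85.9% (84.2 to 87.5) for RBPJ, above all regions in each. The intervals cover counting error only, and neighbouring regions can share a peak. Satellite regions were kept in these shares: at 5 CPM or more they were 26 of the 371 regions above, against 155 of all 45048. Of the 12 named regions above both, BMDM peaks of RBPJ overlapped 12, of LXR 9 and of SMAD4 7. Of the 12 below, they overlapped 10, 7 and 8. Kupffer peaks of LXR and of RBPJ overlapped none of the 12 above and those of SMAD4 1. Of the 12 below, Kupffer peaks of LXR overlapped 8, of SMAD4 9 and of RBPJ 4.

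**Figure D5:**
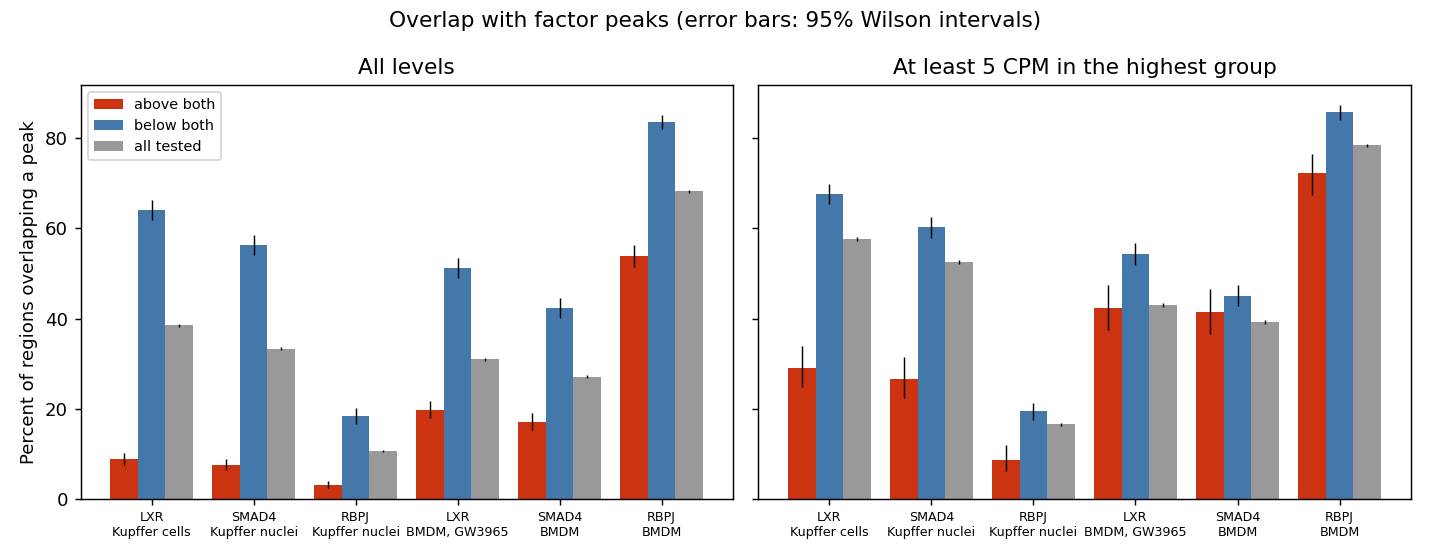
Percent of regions above both (red), below both (blue) and of all tested regions (grey) that overlapped a peak of each factor, over all levels (left) and at 5 CPM or more in the highest group (right), with 95% Wilson intervals. For Kupffer cell LXR the bars stand at 8.81%, 64.1% and 38.5% on the left and at 29.1%, 67.6% and 57.6% on the right.

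Cultured macrophages gave a readout that the choice of regions did not use. BMDM H3K27ac regions overlapped 83.7% of the members above and 97.0% of those below, against 90.1% of all tested regions. Among regions of at least 5 CPM in the highest group the shares were 98.9%, 98.1% and 96.4%, so the lower share above was not seen there. With DLL4, 4.89% of all 82089 tested BMDM regions were higher and 2.64% lower at 2-fold and an adjusted p under 0.05 in edgeR. Of 1427 BMDM regions that overlapped a member above both, 68 (4.77%) were higher and 37 (2.59%) lower, and of 2555 that overlapped a member below, 137 (5.36%) and 73 (2.86%). Both pairs of shares lay near the background. Single members did respond, and where several BMDM regions overlapped a member the values are of 1 of them. The region overlapping the distal Slc7a11 member held 22.1 and 18.4 CPM untreated and 63.6 and 67.9 with DLL4, a log2 difference of 1.71 (SE 0.09). At the Stra6l promoter the level was 10.8 and 10.9 CPM untreated and 33.0 and 37.7 with DLL4 (1.70, SE 0.12), and at Astl 6.32 and 5.97 against 14.5 and 14.7 (1.25, SE 0.17). These 3 of the 12 named regions above both were higher with DLL4 at 2-fold or more, with adjusted p from 1.46e-16 to 6.27e-07 in edgeR. Short of 2-fold, Ssh1 was higher by 0.72 (log2, SE 0.09) and Zfpm1 by 0.55 (SE 0.15). Below both, Map3k20 was lower with DLL4, at 47.1 and 50.7 CPM untreated against 23.3 and 18.3 (log2 -1.23, SE 0.10). By these values it was the 1 of the 12 named regions to pass 2-fold. Susd2 was higher by 0.95 (SE 0.08), short of 2-fold, at 34.9 and 36.4 CPM against 70.1 and 67.5. Also short of 2-fold were Cebpg (log2 0.63, SE 0.14), Stat6 (log2 -0.64, SE 0.14) and Hgsnat (log2 -0.32, SE 0.11). Over all BMDM regions overlapping the member, the largest log2 difference in either direction was 1.16 at Susd2 and 1.20 at Cebpg. Among the regions of genes with most loci below both, Atp10d was higher (log2 1.19, SE 0.35) at 2.28 and 1.34 CPM against 4.28 and 3.90, and Irf2 lower (log2 -1.05, SE 0.26) at 5.44 and 9.92 against 3.67 and 3.80. The members below thus went both ways with DLL4. Gpnmb held 154 and 154 CPM untreated and 167 and 170 with DLL4, and Mir34a 24.5 and 26.9 against 27.2 and 33.1, and neither passed. The BMDM table was normalized apart from the liver table, so levels are not compared between them. Clic4 and Tcf7l1 had no tested BMDM region.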

How the data were processed

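H3K27ac ChIP-seq was compared in 6 libraries (2 each of blood monocytes, RLM and Kupffer cells) and in 4 BMDM libraries. The authors deposited tables of raw tag counts per region of 2000 bp, with the nearest gene, per the file headers, and peak lists with a fold ratio over input as the authors' peak caller gave it. Bowtie2, HOMER and mm10 are named in the submitters' processing notes; their versions are not given in the sources used here. Regions overlap, so a tag can count more than once.

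Counts were tested with edgeR 4.0.16 (R 4.3.3; TMM, filterByExpr, robust quasi-likelihood, Benjamini-Hochberg over all tested regions), and DESeq2 1.42.0 was an alternative. Gene values are sums over regions within 100 kb of the start; the nearest gene need not be the one a region regulates. Scripts were tested on simulated data. The labels do not say whether the 2 libraries of a group are separate animals, so p-values measure the spread between libraries, which may be technical. Overlaps used bedtools 2.31.1.

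Named per direction were the 12 regions with the largest smaller-of-both difference among members above the median level, not satellite, 1 per gene; the 6 genes with most loci; the 5 genes with the largest gene-level difference and at least 2 regions; and listed genes called at gene level. Predicted symbols were left out. Members and lists were chosen with earlier results of these data known. Alternatives were other scalings, filters, fold limits, thinning to the smallest library, a replicate block and leaving out each library. The LXR, SMAD4 and RBPJ libraries entered through their 12 peak lists, and the input libraries only through those lists. Results for 3 genes that the naming rule selects are not reported here.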

Additional observations from a re-analysis of the deposited data

How the results depend on the processing

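Named regions and genes were refitted with other scalings, DESeq2, thinning, a replicate block and each library left out, but not under the other filters and fold limits. None reversed its direction, and 29 of 35 regions and 16 of 20 genes kept their call wherever a value could be had (the Zfpm1, Cxxc5 and Bcl2l11 regions had none in DESeq2 and Cxxc5 none after thinning, nor had 1 unnamed gene in either); the exceptions were Cxxc5, Sgms1, Bcl2l11, Lrrfip1, Hk2 and Irf2 among regions, and Hes5 and 3 others among genes. The counts moved more. Regions above both (1691) numbered 510 in DESeq2, which gave no adjusted p for 1114 of them, 1042 with 1 region per overlapping set, 777 with at least 30 tags in 2 libraries, 3183 at 1.5-fold, 489 at 3-fold, 646 where each difference had to pass, and 371 at 5 CPM or more. Regions below both (1921) numbered 1175 with 1 region per overlapping set, 1153 with 30 tags, 4738 at 1.5-fold, 338 at 3-fold and 918 with trended normalization. Genes above both (319) numbered 181 in DESeq2, 149 with 30 tags and 124 with trended normalization, and genes below both (155) numbered 80 with total tags. Leaving out 1 library gave 885 to 2456 regions above, 1642 to 2886 below, 146 to 466 genes above and 154 to 290 below; the lone library of a group was then assumed to vary like the others. Similar totals did not mean the same members. Without RLM replicate 1, RLM replicate 2 or Kupffer cell replicate 2, most regions and genes above both were not called again. Most of those below both were. Total tags moved the median contrast of all regions from 0.03 to 0.11 (log2). The trended normalization, the 5 CPM limit and the limit to regions from the higher group's peak list were chosen after seeing the data; fewer regions or samples enter the stricter filters, and otherwise the cause was not tested. The replicate numbers did not pair the samples (correlations of deviations -0.01, 0.04 and -0.02), and a replicate block gave 1636 regions above, 1935 below, 321 genes above and 157 below. With peaks of at least 8-fold over input, the overlaps of regions above, below and all tested were 12.0%, 31.1% and 18.4% for LXR in BMDM, 5.80%, 50.1% and 28.5% for LXR in Kupffer cells, 32.2%, 61.6% and 43.5% for RBPJ in BMDM, 0.414%, 1.72% and 1.09% for RBPJ in Kupffer nuclei, 10.5%, 28.9% and 16.2% for SMAD4 in BMDM, and 7.16%, 53.4% and 30.9% for SMAD4 in Kupffer nuclei. Depth limits the weak members: 1 tag was worth 0.0587 to 0.131 CPM.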
